A study of Mus musculus with 28 samples.

Results

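MicroRNA genes whose hairpins lay in well-transcribed DNA of mouse embryonic stem cells (mESCs) were followed in 12 nascent RNA libraries. Rows named Mir with a digit or Mirlet were kept where the authors' WT mean in steady state was above 5 RPKM (reads scaled to the length of the feature and to the depth of the library), and Mir291a, Mir293, Mir294 and Mir295 were left out. The rule gave 118 rows of 1180 microRNA rows, in a table of 24984 genes. The members were thus selected on their WT level in steady state, and that level is given as a description only. The rows just inside the limit were Mir335 (4.27 and 5.85 RPKM in the WT libraries), Mir6394 (5.07 and 5.06 RPKM) and Mir6898 (5.98 and 4.19 RPKM). The rows just outside were Mir6986 (4.33 and 5.56 RPKM), Mir6907 and Mir6920 (both 4.72 and 5.04 RPKM).

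A microRNA is cut from a hairpin in a longer primary transcript, first in the nucleus by Drosha with Dgcr8 and then in the cytoplasm by Dicer1, and the mature strand guides an Argonaute protein to messages that pair with its seed. Many hairpins have no promoter of their own and lie in introns of a host gene, so that RNA polymerase II (Pol II) makes them in passing. A Bru-seq read in a hairpin row therefore reports transcription through that point of the genome and not the amount of mature microRNA. Embryonic stem cells are known for the miR-290 and miR-302 clusters and for keeping mature let-7 low by Lin28a, which blocks the processing of its precursors.

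Bru-seq sequences RNA that has taken up 5-bromouridine (BrU) during a short pulse. The cells were the CCE28 line of mESCs, either WT or EloA null, that is without Elongin A, a Pol II elongation factor and substrate receptor of a ubiquitin ligase. The growth text of the samples also names the CJ7 line. They were grown with LIF and 2i, depleted of mouse embryonic feeder cells before labelling, and given 2 mM BrU for 10 min in steady state, or treated with 1 µM flavopiridol (FP) for 60 min, washed, and given BrU for 5 min or 10 min from the release. FP inhibits P-TEFb and holds Pol II near the start of genes, and after its removal Pol II moves into the gene body again. Each genotype had 2 libraries per condition, and nothing in the sources used here says whether the EloA null cells were 1 clone or several. Another 16 samples, from other assays, were not analysed here.

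One steady-state library titled EloA null, replicate 1, has wild type as its genotype label, and it was grouped by its title. The targeted gene itself did not separate the labels in the way a lost transcript would. In steady state Eloa had 1.18 and 1.16 RPKM in WT and 1.96 and 1.89 RPKM in the libraries labelled EloA null, and it was also higher in the latter after 5 min (2.96 and 2.82 against 5.14 and 6.25 RPKM) and after 10 min (4.65 and 6.51 against 8.74 and 8.93 RPKM). Nascent RNA over the whole gene does not report the protein, which the study examined by immunoblot in WT and EloA null mESCs. The libraries are here called EloA null by their label. Library sizes worked out from the RPKM steps ran from 9857521 to 28547354 reads. The 10 pluripotency genes listed were all expressed, while 2 of 10 feeder fibroblast genes, Col1a1 and Acta2, passed 0.5 RPKM, and those only after release. After 10 min Col1a1 had 1.44 and 1.01 RPKM in WT and 1.01 and 0.749 RPKM in EloA null. Acta2 then had 1.1 and 0.821 against 0.558 and 0.502 RPKM. The summed level of the 10 feeder fibroblast genes was 2.5 to 2.51 RPKM in WT and 1.28 to 1.93 RPKM in EloA null after 5 min. It was 3.02 to 4.21 against 2.1 to 2.93 RPKM after 10 min, with the fibroblast markers Dcn, Lum and Thy1 at or near 0. In steady state the sum was 1.79 to 2.32 RPKM in WT and 1.42 to 1.66 RPKM in EloA null. The sums of 5 neural genes were 0.397 to 2.26 RPKM and of 5 endoderm genes 0.139 to 0.698 RPKM over all 12 libraries. In each condition limma called 0 genes of any of these lists, and also 0 of all expressed rows. The part of these differences in the results below was not tested, and in such bulk samples fewer cells of a type and less RNA per cell cannot be told apart.

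The 118 rows fell into 95 loci, of which 11 held several members, 34 members in all. By the RefSeq annotation of GRCm38, 94 lay in a gene on the same strand, 10 lay only in a gene on the opposite strand and 14 lay outside genes. Of the 104 rows with a host gene, 79 were intronic, 18 were exonic and 7 were intronic or exonic by transcript. The hairpin rows other than Mir17hg were 55 to 122 bases long, with a median of 79.0 bases over all members. The rows therefore rested on few reads, with a median of 18.6 reads per library in steady state, 4.38 reads after 5 min and 14.9 reads after 10 min. In 52 rows the mean was at least 20 reads in steady state, in 19 after 5 min and in 48 after 10 min.

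The mature sequences of the members with a shared seed are shown because they let members with the same target rule but different hosts be compared. Of the 118 rows, 109 had a mature entry in RefSeq. Among the sequences used here there were 190 mature arms with 174 distinct seeds, and 9 seeds occurred in several members, 22 members in all. Capitals mark the seed, bases 2 to 8, and all sequences run 5′ to 3′. The seed with the most members was that of let-7, in 5 members from 3 places: Mirlet7a-1, Mirlet7f-1 and Mirlet7d next to each other on chromosome 13, Mirlet7g in Wdr82 and Mir98 in Huwe1. The let-7a arm lies at chr13:48538239-48538260 on the minus strand and the miR-98 arm at chrX:151913229-151913250 on the plus strand.
mmu-let-7a-5p: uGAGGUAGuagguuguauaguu
mmu-let-7f-5p: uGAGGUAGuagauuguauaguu
mmu-let-7d-5p: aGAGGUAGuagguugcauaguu
mmu-let-7g-5p: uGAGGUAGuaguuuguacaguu
mmu-miR-98-5p: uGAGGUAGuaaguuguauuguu

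The miR-17 seed AAAGUGC was shared by Mir106b and Mir93, in intron 13 of Mcm7, and by Mir20a of the miR-17 to miR-92 cluster on chromosome 14. The miR-106b arm lies at chr5:138165787-138165807 on the minus strand and the miR-20a arm at chr14:115044183-115044205 on the plus strand.
mmu-miR-106b-5p: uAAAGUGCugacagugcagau
mmu-miR-93-5p: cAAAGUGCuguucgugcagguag
mmu-miR-20a-5p: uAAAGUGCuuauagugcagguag

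The miR-25 seed AUUGCAC joined the third hairpin of Mcm7 to Mir92-1 of the chromosome 14 cluster and to Mir367, which lies opposite to Larp7. The miR-367 arm lies at chr3:127545779-127545800 on the plus strand.
mmu-miR-25-3p: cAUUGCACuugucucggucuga
mmu-miR-92a-3p: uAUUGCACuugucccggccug
mmu-miR-367-3p: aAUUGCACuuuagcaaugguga

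The miR-15 seed AGCAGCA was held by Mir15b in Smc4, Mir15a in Dleu2 and also by Mir6353 in an intron of Pid1. The miR-15b arm lies at chr3:69009775-69009796 on the plus strand, the miR-15a arm at chr14:61632075-61632096 on the minus strand and the miR-6353 arm at chr1:84218926-84218948 on the minus strand.
mmu-miR-15b-5p: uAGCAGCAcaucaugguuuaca
mmu-miR-15a-5p: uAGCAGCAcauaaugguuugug
mmu-miR-6353: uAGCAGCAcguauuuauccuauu

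In 3 members the annotated hairpin was a whole intron, the arrangement of a mirtron, which the spliceosome can cut out without Drosha. These were Mir1981 in intron 5 of Mtarc2 (82 bases, chr1:184822407-184822488, minus strand), Mir7068 in intron 4 of Cherp (74 bases, chr8:72470016-72470089, minus strand) and Mir7070 in intron 2 of Fbxw9 (86 bases, chr8:85062086-85062171, plus strand). The 2 hairpins that RefSeq lists are shown with their first and last 2 bases in capitals, which are the GU and AG of a splice donor and acceptor.
Mir1981: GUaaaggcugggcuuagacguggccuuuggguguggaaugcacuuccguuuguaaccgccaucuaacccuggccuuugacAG
Mir7068: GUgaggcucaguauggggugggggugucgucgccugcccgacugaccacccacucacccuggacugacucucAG

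In steady state the members spanned 5.06 to 99.2 RPKM in WT, with a median of 8.83 RPKM. The highest was Mir1949 in an intron of Snhg4, a snoRNA host gene, with 109.0 and 89.5 RPKM in WT and 98.8 and 105.0 RPKM in the EloA null libraries. The miR-290 locus on chromosome 7, the main microRNA cluster of mESCs, had 5 rows with WT means from 50.5 to 78.7 RPKM. Mir291b had 75.7 and 81.6 RPKM in WT and 75.5 and 97.8 RPKM in the EloA null libraries. Mir292b had 79.6 and 75.1 RPKM in WT and 76.7 and 62.3 RPKM in the EloA null libraries. The libraries of the 2 genotypes overlapped for 4 of these 5 rows and not for Mir292, which had 52.6 and 48.5 RPKM in WT and 58.5 and 55.0 RPKM in the EloA null libraries. Mir292b overlaps Mir292 on the other strand, and Mir290b overlaps Mir290a, so these pairs could share reads. Mir1894, 0.733 kb from the start of Ppp1r10, a subunit of a phosphatase complex, had 62.0 and 65.4 RPKM in WT and 68.8 and 78.2 RPKM in the EloA null libraries. Mir6935 in Actg1, the cytoplasmic gamma actin gene, had 54.3 and 53.2 RPKM in WT and 94.5 and 71.5 RPKM in the EloA null libraries, and its groups did not overlap.

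Most intronic members stood above their host row. Of 78 intronic members with a host row, 69 had more RPKM than the host in WT, and the median ratio was 1.76. The rule chose rows with high values, which favours such ratios. Over all intronic microRNA rows in hosts above 2 RPKM, the median ratio was 1.11 for 165 rows on the host's strand (quartiles 0.602 and 1.62) and 1.5 for 16 rows on the opposite strand (quartiles 0.98 and 2.08). Rows on the opposite strand of a host were thus counted at no lower a level, and whether strand was used in the counting is not given in the sources used here.

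The members' steady-state levels are set between genotypes as a description. The median log2 ratio of EloA null to WT was 0.02 over 118 members and 0.04 over all 11347 expressed rows, those with a mean above 0.5 RPKM in either genotype. A ratio past 1.5-fold was seen in 5 members that were higher (4.24%, background 7.21%) and 9 that were lower (7.63%, background 2.1%) in the EloA null libraries. A selection on the WT level tilts this count to lower values, so nothing is read from it. The groups did not overlap for 15 members that were higher (12.7%, background 32.0%) and 16 that were lower (13.6%, background 21.4%). Among the 52 members with at least 20 reads, 3 were over 1.5-fold higher and 0 were over 1.5-fold lower. Without the library whose genotype label disagrees, 15 of 118 members were over 1.5-fold higher (12.7%, background 8.65%) and 18 were lower (15.3%, background 2.83%).

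Mir19b-1 of the miR-17 to miR-92 cluster had 7.21 and 8.64 RPKM in WT and 18.9 and 9.87 RPKM in the EloA null libraries, with no overlap. The 2 EloA null libraries differed widely there, and the higher value came from the library with the disagreeing label. Mir133a-1, a muscle microRNA opposite to the host Mib1, had 6.77 and 7.9 RPKM in WT and 1.27 and 2.63 RPKM in the EloA null libraries, from 2 to 15 reads. Over the 8 members on chromosome 14 the median log2 ratio was 0.33 in steady state, -0.11 after 5 min and 0.15 after 10 min, beside -0.01, -0.19 and 0.13 over the 110 other members. Of these 8, Mir17hg, Mir18, Mir19b-1, Mir20a and Mir92-1 form 1 locus, and Mir17hg overlaps Mir19b-1 and Mir92-1. The 8 rows are thus not independent, and nothing is read from their median about the chromosome.

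After release from FP, the position of the hairpin in its host went with how much nascent RNA it had. The recovery ratio is RPKM after release over the mean steady-state RPKM of the same genotype. After 5 min its median was higher for members within 10 kb of the host start than for those at 10 to 100 kb. It was then highest beyond 100 kb. After 10 min the median was highest at 5 to 10 kb and lowest at 25 to 100 kb. The 3 tables were normalized separately, so a ratio of 1 does not mark full recovery, and comparisons across times are descriptions. As a scale, the median over all expressed rows was 0.542 to 0.669 per library after 5 min and 0.985 to 1.07 after 10 min. The distance runs from the farthest annotated RefSeq start of the host.

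**Figure D1:**
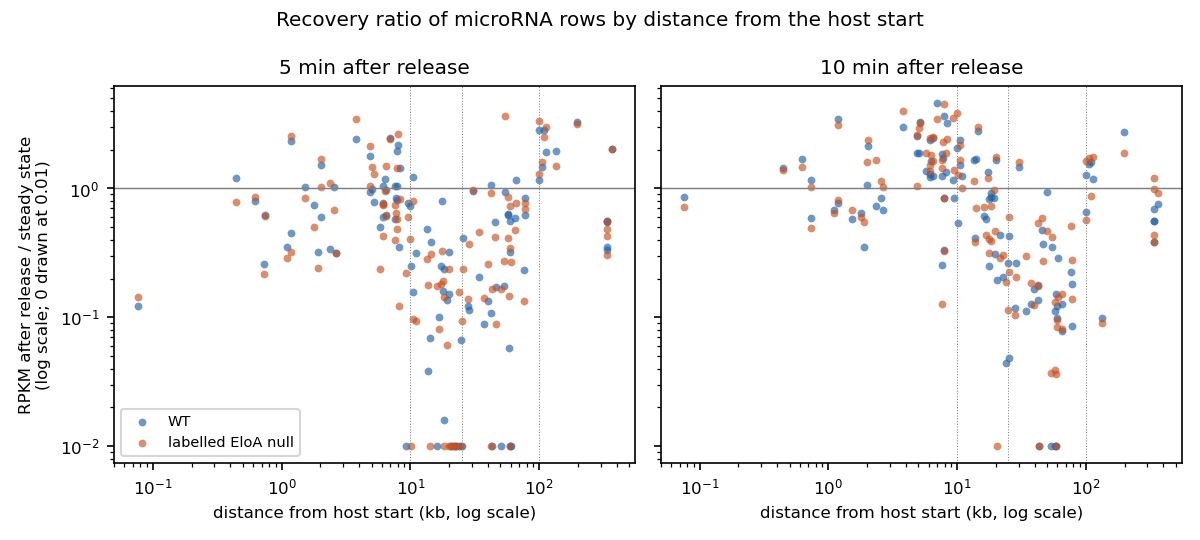
Recovery ratio of the 104 members with a host gene against their distance from the host start in kb, both axes logarithmic, for 5 min and 10 min after release, with 1 point per member and genotype and dotted lines at 10, 25 and 100 kb. After 5 min the trough of low ratios begins near 10 kb, and after 10 min it lies further into the gene.

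After 5 min, the 41 members within 10 kb had median ratios of 0.86 and 0.81 for WT, and of 0.662 and 0.753 for EloA null. The 23 members at 10 to 25 kb had 0.139 and 0.133 in WT and 0 and 0.0791 in EloA null. All 4 libraries were thus far lower in the second class than in the first. After 10 min the members at 10 to 25 kb stood at 0.904 and 0.578 in WT and at 0.569 and 0.69 in EloA null, while the first class reached 1.32 and 1.3 in WT and 1.62 and 1.62 in EloA null. The members over 25 kb had 0.228 and 0.186 in WT and 0.381 and 0.218 in EloA null after 10 min.

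Finer classes, chosen after seeing the data, separated the near and the far members. Within 5 kb, 19 members had a mean class median of 0.743 ± 0.0263 (SD, n = 2) after 5 min in WT. After 10 min it was 0.87 ± 0.0382 (SD, n = 2), beside 1.43 ± 0.0671 (SD, n = 2) at 5 to 10 kb. At 25 to 50 kb, 13 members had a mean class median of 0.198 ± 0.0288 (SD, n = 2) after 5 min and 0.166 ± 0.0186 (SD, n = 2) after 10 min in WT. At 50 to 100 kb, 16 members had 0.442 ± 0.0513 (SD, n = 2) after 5 min and 0.143 ± 0.00748 (SD, n = 2) after 10 min in WT. Beyond 100 kb, 11 members had 1.4 ± 0.194 (SD, n = 2) after 5 min and 0.781 ± 0.0258 (SD, n = 2) after 10 min in WT. The members at 50 to 100 kb thus had less nascent RNA at the later time, while those at 10 to 25 kb had more. The EloA null libraries showed the same order, with 0.487 ± 0.106 (SD, n = 2) falling to 0.124 ± 0.00539 (SD, n = 2) at 50 to 100 kb, and their steady-state values took no part in choosing the members.

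**Figure D2:**
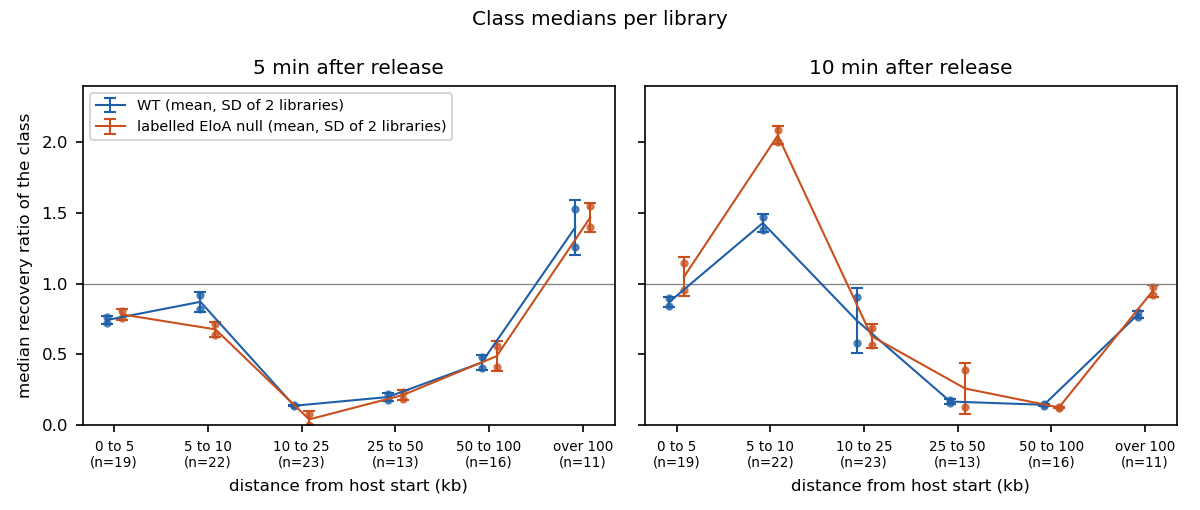
Median recovery ratio of the members in 6 classes of distance from the host start in kb, for 5 min and 10 min after release, with 1 point per library and lines through the mean with the SD of 2 libraries. The class at 5 to 10 kb is the highest of the 6 after 10 min, and the genotypes stand farthest apart there, with all steady-state libraries in the denominator.

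Counts of members are given with these medians. After 5 min, 21 of 23 WT values and 22 of 23 EloA null values at 10 to 25 kb were under 0.5. Beside these stood 2 and 7 of 22 at 5 to 10 kb, and 7 and 6 of 19 within 5 kb. After 10 min, 8 and 11 of 23 were under 0.5 at 10 to 25 kb, 12 and 9 of 13 at 25 to 50 kb, and 14 and 14 of 16 at 50 to 100 kb. In the class of 10 to 25 kb, 5 members in WT and 8 in EloA null were at 0 reads after 5 min, and 0 and 1 after 10 min.

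With all steady-state libraries in the denominator, the WT and EloA null libraries differed most at 5 to 10 kb after 10 min, where the class median reached 2.05 ± 0.0633 (SD, n = 2) in EloA null, beside a WT value of 1.43 ± 0.0671 (SD, n = 2). Without the steady-state library whose genotype label disagrees, which enters the denominator of the EloA null ratios, that EloA null value was 1.73 ± 0.127 (SD, n = 2). Its difference from WT was then 0.307, less than the 0.356 found over 100 kb. In the same setting the members within 10 kb as a class went from 1.62 to 1.36, beside 1.31 in WT. The genotype difference of 0.314 in that larger class became 0.0537. Its part within 5 kb did not shrink, with a difference of 0.192 without that library and 0.182 with it. The ratio has in its WT denominator the value that chose the members, so no test of this difference is given, and 2 libraries against 2 could not give an exact permutation p under 0.333. The 10-min table alone, which the rule did not use, gave a smaller difference. There 16 of these 22 members had a higher mean in EloA null and 6 a lower one, with a median log2 ratio of 0.16, beside 0.06 over all expressed rows. After 5 min the same members had a median log2 ratio of -0.34, with 8 higher and 14 lower. At 10 to 25 kb the median log2 ratios were -0.41 after 5 min over the 13 members with a value above 0 in both genotypes and -0.07 after 10 min over 22.

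Single members show these steps. Mir6352 lies 18.4 kb into Epha4, an ephrin receptor, in its intron 3 at chr1:77496653-77496768 on the minus strand, and had 23.1 and 19.1 RPKM in WT and 17.9 and 17.9 RPKM in the EloA null libraries in steady state. After 5 min it had 0, 1, 0 and 0 reads in the 4 libraries. After 10 min it had 23.4 and 15.6 RPKM in WT and 11.2 and 15.1 RPKM in the EloA null libraries, near its steady-state level in WT. Mir7090, 21.7 kb into Ctnnb1, the gene of beta-catenin, had 24.3 and 16.8 RPKM in WT and 13.2 and 16.2 RPKM in the EloA null libraries in steady state. It had 0 reads in all 4 libraries after 5 min and 12.9 and 5.12 RPKM in WT and 4.04 and 4.52 RPKM in the EloA null libraries after 10 min.

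Mir30e, 58.9 kb into Nfyc, a subunit of the NF-Y transcription factor, had 6.37 and 3.89 RPKM in WT and 5.64 and 2.72 RPKM in the EloA null libraries in steady state and 0 reads in all 8 libraries after release. In the deepest of these, 3 reads would have been 1.14 RPKM, and in the shallowest 3.31 RPKM. The nearest annotated start of Nfyc is 43.1 kb away. Mir719 in Nupl1 and Mir6898 in Kansl3 were also at 0 reads in all 4 libraries after 5 min.

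Pairs of members within 1 host can be compared inside a gene. In Ccnf, the cyclin F gene, Mir6965 lies 10.5 kb and Mir5134 16.8 kb from the start, with steady-state means of 9.05 and 9.99 RPKM in WT. After 5 min both were low, with recovery ratios of 0.156 and 0.101 in WT. After 10 min Mir6965 had 17.4 and 9.92 RPKM in WT and 19.6 and 18.1 RPKM in the EloA null libraries, and Mir5134 had 8.17 and 3.49 RPKM in WT and 5.14 and 2.69 RPKM in the EloA null libraries. The nearer hairpin was higher than the farther one in every library after 10 min.

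In Tenm4, a long teneurin gene, Mir708 and Mir6394 both lie in intron 1, 78.2 and 134 kb from the farthest start. After 5 min Mir6394 had 13.3 and 6.38 RPKM in WT and 10.2 and 6.43 RPKM in the EloA null libraries. After 10 min it had 0.537 and 0.458 RPKM in WT and 1.01 and 0 RPKM in the EloA null libraries. Mir708 went from 7.45 and 2.17 RPKM in WT and 6.93 and 3.19 RPKM in the EloA null libraries after 5 min to 0.975 and 0 RPKM in WT and 1.38 and 0.643 RPKM in the EloA null libraries after 10 min. For each row all 4 values after 10 min were below all 4 values after 5 min, at 0 to 3 reads against 3 to 13 reads. The nearest annotated starts are 37.8 and 94.0 kb away. The host row, which covers the whole gene, had 8.6 and 7.71 RPKM after 5 min and 2.73 and 2.62 RPKM after 10 min in WT.

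Some distant members were still above their steady-state mean after 10 min. Mir7077 in Cmip, 196 kb from the start, had 23.1 and 18 RPKM in WT and 47.1 and 16.3 RPKM in the EloA null libraries after 5 min and 21.4 and 12.7 RPKM in WT and 17.6 and 20.3 RPKM in the EloA null libraries after 10 min. Mir7026 in Ep400, a chromatin remodeller, 105 kb from the start, had 9.08 and 9.43 RPKM in WT and 11.3 and 12.1 RPKM in the EloA null libraries after 5 min and 11.9 and 7.44 RPKM in WT and 17.2 and 7.84 RPKM in the EloA null libraries after 10 min. Their steady-state means in WT were 6.29 and 6.28 RPKM, so both rows stayed above it in the WT means, that of Mir7077 lower than after 5 min. The 4 rows of the miR-23b locus lie up to 336 kb from the farthest start of Aopep, but 60.5 kb from the nearest one for Mir23b, and had recovery ratios of 0.383 to 0.695 after 10 min in WT. After 5 min their WT means were 2.25 to 4.34 RPKM, beside 6.71 to 9.22 RPKM in steady state. They were thus below their steady-state level at 5 min, unlike the median of the class over 100 kb.

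Between 10 and 100 kb most hairpin rows had a lower recovery ratio than their host row. The WT member ratio has as its denominator the value that chose the members, and a choice of high values lowers it, so these counts are descriptions. Within 5 kb, 11 of 19 members had a lower WT ratio than their host row after 5 min. At 10 to 25 kb, 21 of 22 members were below their host after 5 min and 15 of 22 after 10 min, with medians of 0.154 against 0.603 and of 0.841 against 1.09. At 25 to 50 kb all 13 members with a host row were below it after 10 min in WT, with medians of 0.166 against 0.982, and 11 of 13 in EloA null. These include Mir292b of the miR-290 locus, placed 30542 bases into Nlrp12 by a predicted model only. The Nlrp12 row had just 0.644 and 0.515 RPKM in WT in steady state, and its WT ratio after 10 min was 5.68. At 50 to 100 kb, 11 of 16 were below it after 5 min, with close medians of 0.577 against 0.594. Over 100 kb, 5 of 11 were below it after 5 min and 6 of 11 after 10 min in WT, with medians of 1.47 against 1.36 and of 0.763 against 0.957. The host row sums reads over the whole gene, its start included, while the hairpin row samples 1 point.

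**Figure D3:**
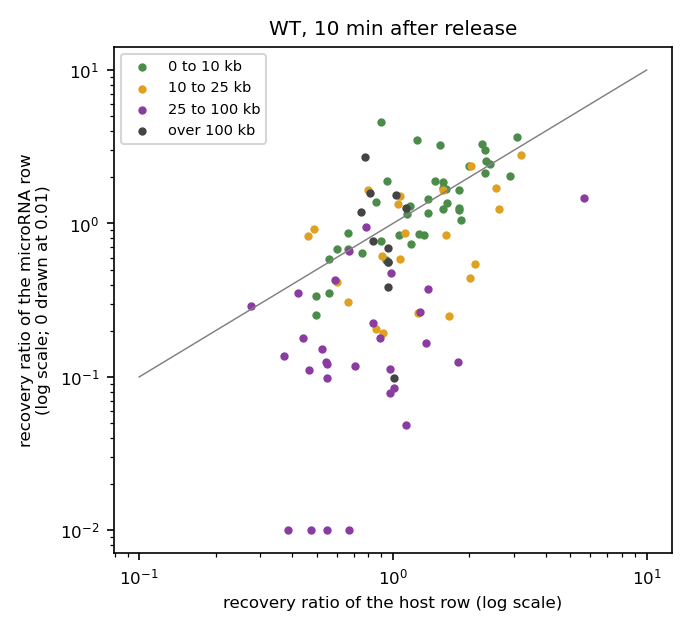
Recovery ratio of each microRNA row against that of its host row in WT after 10 min, on logarithmic axes, coloured by distance class, with the line of equal ratios. Members within 10 kb lie about the line, and 14 of 16 members at 50 to 100 kb lie below it.

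By the rule for named members, the lowest and highest WT ratios after 10 min were read among those with a host and at least 20 steady-state reads. Among the lowest were Mir3063 in Igf2bp1 (0.178, 42.6 kb), Mir6385 opposite to Pml (0.264, 28.6 kb), Mir6927 in Mllt6 (0.414, 13.7 kb) and Mir1893 in Epc1 (0.429, 25.5 kb). The highest were Mir1967 in Urb2 (3.48, 1.18 kb), Mir1192 in Klf9 (3.24, 8.27 kb), Mir1291 in Kansl2 (2.8, 14.4 kb), Mir3064 in Ddx5 (2.45, 6.46 kb) and Mir7-1 in Hnrnpk (2.38, 10.5 kb). Mir1291 overlaps the snoRNA Snora34, so its reads may be shared with it.

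Members with the same seed recovered differently where their hosts differed. Among the let-7 rows, Mirlet7g, 7.95 kb into Wdr82, a subunit of a histone methyltransferase complex, had 10.5 and 8.55 RPKM in WT and 4.91 and 8.13 RPKM in the EloA null libraries in steady state. It had 27.7 and 13.5 RPKM in WT and 15.3 and 19.1 RPKM in the EloA null libraries after 5 min and 31.4 and 38.1 RPKM in WT and 26.2 and 32.6 RPKM in the EloA null libraries after 10 min. The row was above its steady-state values in every library at both times. Mir98, 110 kb into the ubiquitin ligase gene Huwe1, had 6.97 and 8.95 RPKM in WT and 12 and 7.29 RPKM in the EloA null libraries in steady state. It had 18.8 and 26.3 RPKM in WT and 27.2 and 21.4 RPKM in the EloA null libraries after 5 min and 12.8 and 12.6 RPKM in WT and 7.42 and 9.41 RPKM in the EloA null libraries after 10 min, so that it was highest at 5 min in all 4 libraries.

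The 3 let-7 hairpins on chromosome 13 share a primary transcript and lie outside annotated hosts. Mirlet7a-1 had 13.8 and 16.4 RPKM in WT and 16.1 and 14.1 RPKM in the EloA null libraries in steady state. It had 13.0 and 15.1 RPKM in WT and 8.04 and 12.9 RPKM in the EloA null libraries after 5 min and 46.4 and 51.1 RPKM in WT and 31.4 and 37.3 RPKM in the EloA null libraries after 10 min. Mirlet7f-1 had 12.5 and 9.76 RPKM in WT and 3.77 and 8.46 RPKM in the EloA null libraries after 5 min and 37.0 and 45.8 RPKM in WT and 32.6 and 41.3 RPKM in the EloA null libraries after 10 min. Mirlet7d, the last of the 3 in the direction of transcription, had 7.88 and 3.07 RPKM in WT and 4.07 and 1.69 RPKM in the EloA null libraries after 5 min and 40.2 and 38.3 RPKM in WT and 25.3 and 31.3 RPKM in the EloA null libraries after 10 min. After 5 min Mirlet7d was the lowest of the 3 in 3 of 4 libraries, and Mirlet7f-1 was the lowest in the first EloA null library. After 10 min all 3 stood above their steady-state values in all libraries, and Mirlet7a-1 and Mirlet7d were lower in EloA null without overlap.

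The miR-15 seed came from 1 near and 2 far hosts. Mir15b, 5.07 kb into Smc4, a condensin subunit, had 19.6 and 8.39 RPKM in WT and 13.5 and 8.94 RPKM in the EloA null libraries in steady state, 14.3 and 13.6 RPKM in WT and 17.0 and 16.3 RPKM in the EloA null libraries after 5 min and 19.9 and 33.3 RPKM in WT and 34.4 and 32.3 RPKM in the EloA null libraries after 10 min. Mir15a, 50.3 kb into the noncoding Dleu2, had 5.98 and 4.69 RPKM in WT and 9.26 and 5.11 RPKM in the EloA null libraries in steady state. It had 0, 0, 1 and 2 reads after 5 min, and 6.33 and 3.78 RPKM in WT and 2.98 and 3.75 RPKM in the EloA null libraries after 10 min. Mir6353, 65.7 kb into Pid1, had 8.08 and 4.89 RPKM in WT and 6.68 and 4.61 RPKM in the EloA null libraries after 5 min and 0.47 and 0.401 RPKM in WT and 0.886 and 0.31 RPKM in the EloA null libraries after 10 min. Of these rows with 1 seed, the first rose by 10 min above its steady-state mean, the second was near 0 at 5 min and the third near 0 at 10 min.

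The hairpins of Mcm7, which encodes a subunit of the replicative helicase, lie 6.11 to 6.52 kb from its start and moved together. Their WT means ran from 16.8 to 19.9 RPKM in steady state, from 11.9 to 19.9 RPKM after 5 min and from 24.3 to 27.5 RPKM after 10 min. In EloA null they ran from 15.2 to 21.3, from 9.32 to 15.8 and from 24.8 to 32.3 RPKM. Mir106b had 29.8 and 19.4 RPKM in WT and 29.9 and 34.6 RPKM in the EloA null libraries after 10 min, and the highest WT value lay just under the lowest EloA null value. Of the hairpins that lie in 1 intron of Mcm7, Mir93 was the highest in 3 of 4 libraries after 5 min.

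The miR-17 to miR-92 cluster, an oncogenic cluster on chromosome 14, was low after 5 min, and after 10 min its 5 rows had recovery ratios of 0.667 to 1.03 in WT and 0.574 to 0.951 in EloA null, with Mir17hg at the lower end in both. Mir17hg, whose row of 2339 bases gave the most reads of any member, had 15.7 and 15.8 RPKM in WT and 23.9 and 16.8 RPKM in the EloA null libraries in steady state. It had 2.95 and 2.06 RPKM in WT and 2.55 and 2.55 RPKM in the EloA null libraries after 5 min and 10.6 and 10.4 RPKM in WT and 12 and 11.4 RPKM in the EloA null libraries after 10 min. Its levels in the 2 genotypes overlapped after 5 min, and they were higher in EloA null without overlap in the other conditions, by a ratio of 1.29 in steady state and 1.11 after 10 min. The steady-state value of 23.9 RPKM came from the library with the disagreeing label, and the other EloA null library, at 16.8 RPKM, stood close to WT. RefSeq begins Mir17hg inside the cluster, so that the distance of 0.076 kb given to Mir92-1 is that of the model. Mir92-1 had 0 and 2.96 RPKM in WT and 1.05 and 1.45 RPKM in EloA null after 5 min, and its WT ratio of 0.122 was the lowest among the members assigned to within 10 kb apart from Mir6900.

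**Figure D4:**
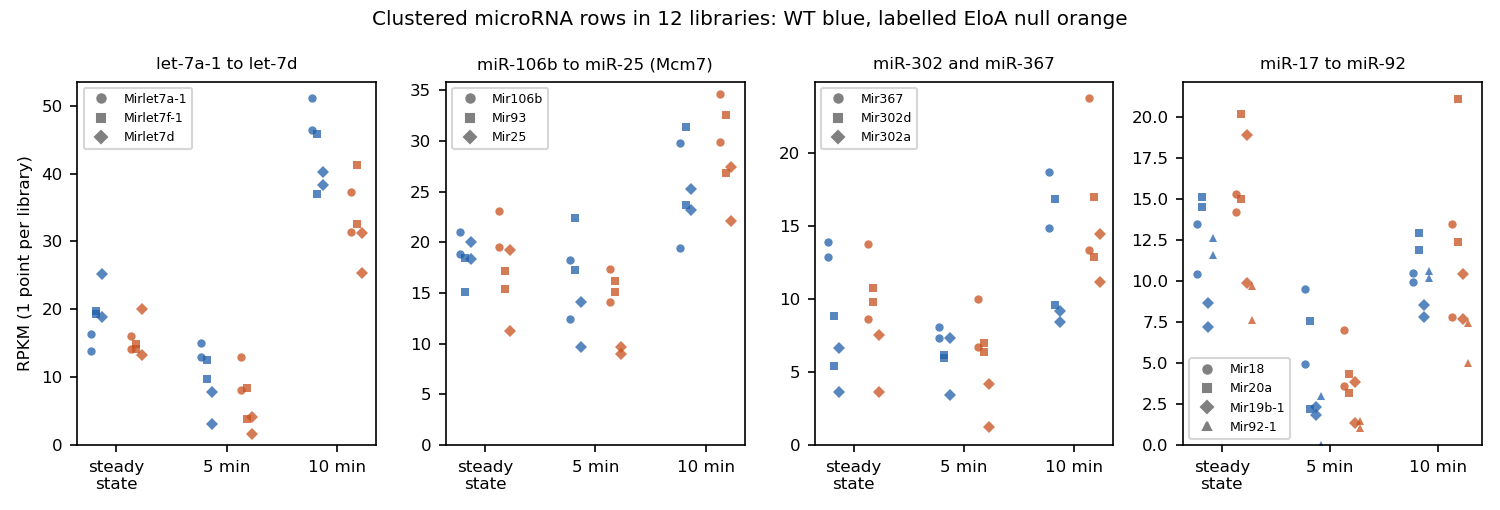
RPKM of the hairpins of 4 clusters in the 12 libraries, with 1 point per library, WT in blue and the libraries labelled EloA null in orange. The let-7 rows reach 25.3 to 51.1 RPKM after 10 min, above all their steady-state values, while the rows of the miR-17 to miR-92 cluster are lowest after 5 min.

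The miR-302 cluster, known for its part in pluripotency, lies in an intron of Larp7 on the opposite strand, at 7.58 to 7.82 kb. Mir367 had 13.9 and 12.9 RPKM in WT and 8.64 and 13.8 RPKM in the EloA null libraries in steady state and 14.9 and 18.7 RPKM in WT and 13.4 and 23.8 RPKM in the EloA null libraries after 10 min. Mir302a had 8.47 and 9.2 RPKM in WT and 14.5 and 11.2 RPKM in the EloA null libraries after 10 min and Mir302d 16.9 and 9.62 RPKM in WT and 12.9 and 17.0 RPKM in the EloA null libraries. The WT recovery ratios after 10 min were 1.25 for Mir367, 1.71 for Mir302a, 1.85 for Mir302d and 1.58 for the Larp7 row. Whether their reads came from the cluster or from Larp7 cannot be told apart.

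The rows of the miR-290 locus stood near their steady-state level after 5 min. Mir290a had 47.7 and 76.1 RPKM in WT and 52.6 and 67.0 RPKM in the EloA null libraries after 5 min, and Mir290b had 42.0 and 68.1 RPKM in WT and 53.5 and 59.9 RPKM in the EloA null libraries. Over the 5 rows the WT means ran from 48.6 to 73.7 RPKM after 5 min, beside 50.5 to 78.7 RPKM in steady state, and from 73.3 to 113.0 RPKM after 10 min. In the imprinted Rian, a noncoding RNA of the Dlk1 to Dio3 region, Mir1188 and Mir341 went the other way, with WT recovery ratios of 1.95 and 1.05 after 5 min and 0.335 and 0.255 after 10 min. They lie 7.94 and 7.6 kb from the start of Rian as annotated, in an intron of 10869 bases.

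Between genotypes, no member passed the test in either recovery table, without a block for the replicate number. limma on log2(RPKM + 0.1), with Benjamini-Hochberg adjustment over all expressed rows, called 0 of 8985 rows after 5 min (background 0%) and 0 of 10241 after 10 min (background 0%), and 0 of 113 members tested at each time. At an unadjusted p under 0.05 there were 846 rows (9.42%) after 5 min, with 13 members, 9 higher and 4 lower in EloA null. After 10 min there were 2098 rows (20.5%), with 17 members, 9 higher and 8 lower. The 5 members not tested after 5 min for low values were Mir30e, Mir6352, Mir6898, Mir7090 and Mir719, and after 10 min Mir133a-1, Mir1898, Mir30e, Mir6417 and Mir7008. With the replicate number as a block, 128 rows (1.42%) and 7 members passed after 5 min, and 0 rows (0%) and 0 members after 10 min. One fit of all 12 libraries called 532 rows (5.92%) after 5 min, with 4 members, and 264 rows (2.58%) after 10 min, with Mir6898. Those 4 members, Mir15a, Mir3112, Mir5119 and Mir6900, had 0 reads in both WT libraries and at most 2 reads in any EloA null library, so no fold is given.

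Fold counts of the members ran above those of all rows in both directions, where the rows rest on few reads. After 5 min 18 of 113 members were over 1.5-fold higher in EloA null (15.9%, background 5.4%) and 27 were lower (23.9%, background 6.72%). After 10 min 17 were higher (15.0%, background 9.41%) and 16 were lower (14.2%, background 3.01%). Of the members with at least 20 reads, 0 of 19 passed 1.5-fold in either direction after 5 min, and 3 of 48 did so in each direction after 10 min. The groups did not overlap for 17 members that were higher after 5 min (15.0%, background 15.4%) and 22 that were lower (19.5%, background 25.0%). After 10 min they did not overlap for 25 that were higher (22.1%, background 33.5%) and 17 that were lower (15.0%, background 21.8%).

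**Figure D5:**
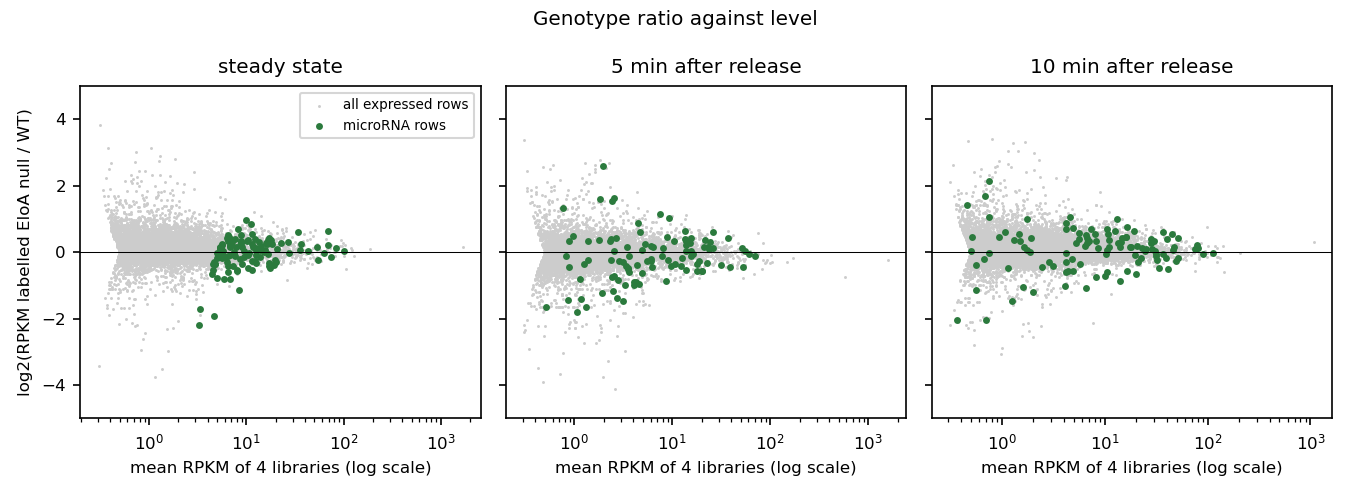
log2 ratio of mean RPKM in the libraries labelled EloA null to WT against the mean RPKM of 4 libraries on a logarithmic axis, for the members over all expressed rows in the 3 conditions. Members with higher RPKM lie closer to a ratio of 1 than those with lower RPKM.

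With at least 20 reads, the groups did not overlap for 6 of 19 members after 5 min and 17 of 48 after 10 min. After 5 min the 6 were lower in EloA null (31.6%), and after 10 min 11 were higher (22.9%) and 6 lower (12.5%). The shares over all expressed rows, without the limit on reads, were 25.0%, 33.5% and 21.8% for these directions, so the members did not stand out after 10 min, and the same limit on reads was not applied to all rows. Mir292, of the miR-290 locus, had 52.0 and 69.3 RPKM in WT and 43.0 and 45.9 RPKM in the EloA null libraries, a log2 difference of -0.43 (SE 0.21, limma adjusted p = 0.597). Mir1949 had 40.6 and 49.6 RPKM in WT and 33.6 and 32.3 RPKM in the EloA null libraries, a log2 difference of -0.45 (SE 0.19, limma adjusted p = 0.547). Of the 6, the 5 with the largest falls are named, and the others of these were Mir3063 (-0.53), Mir1192 (-0.53) and Mir5121 (-0.34), the last within the snoRNA Snord33. None passed the adjusted limit.

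After 10 min the 5 named lower members included Mir98, Mirlet7a-1 and Mirlet7d, of which the last 2 share a primary transcript. The other let-7 rows, Mirlet7f-1 and Mirlet7g, overlapped between genotypes. Mir98 had a log2 difference of -0.6 (SE 0.141, limma adjusted p = 0.158), Mirlet7a-1 of -0.51 (SE 0.119, limma adjusted p = 0.157) and Mirlet7d of -0.48 (SE 0.129, limma adjusted p = 0.175). Mir6352 (-0.55) and Mir1291 (-0.32) completed the 5. The higher ones were Mir6910 in Ptbp1 (0.63), Mir7079 in Rpl13 (0.6), Mir6935 in Actg1 (0.59), Mir6965 in Ccnf (0.51) and Mir6900 in Ndufa10 (0.45). Mir7079, in an intron of a ribosomal protein gene, had 30.8 and 27.6 RPKM in WT and 49.4 and 39.6 RPKM in the EloA null libraries, and all of these lay 1.11 to 10.5 kb from their host start. The Huwe1 row was also lower in EloA null after 10 min, with 4.9 and 5.71 RPKM in WT and 4.19 and 4.61 RPKM in EloA null. Among the other hosts, Epha4 was lower and Ptbp1, Rpl13, Actg1 and Ccnf were higher, without overlap. The rows of Kansl2, host of Mir1291, and Ndufa10, host of Mir6900, overlapped between genotypes. Ndufa10 had 5.37 and 3.82 RPKM in WT and 4.14 and 3.78 RPKM in EloA null.

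No gene that makes or uses microRNAs passed the test, and neither did any other expressed row in the same fits. The 28 genes of the list were all in the tables. limma called 0 of the 25 expressed in steady state, 0 of 24 after 5 min and 0 of 24 after 10 min. At an unadjusted p under 0.05 there were 2, 0 and 2 of the listed genes. Over all expressed rows there were 2083 of 11347 in steady state, 9.42% after 5 min and 20.5% after 10 min. The median log2 ratios of the listed genes were near 0 (-0.1 after 5 min and -0.01 after 10 min). Drosha had 5.3 and 5.39 RPKM in WT and 4.77 and 4.97 RPKM in EloA null in steady state, and Dicer1 2.87 and 2.91 against 3.1 and 3.01 RPKM. Mettl3, which methylates primary microRNAs, had 4.54 and 4.35 RPKM in WT and 6.62 and 6.52 RPKM in EloA null after 10 min (limma adjusted p = 0.108). Lin28a was past 1.5-fold in steady state, with 0.348 and 0.358 against 0.561 and 0.756 RPKM (limma adjusted p = 0.182). Mir1306, which lies in an exon of Dgcr8, had 10.1 and 16.3 RPKM in WT and 7.11 and 22.6 RPKM in the EloA null libraries in steady state, and its libraries overlapped between genotypes, as did those of the Dgcr8 row.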

How the data were processed

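Bru-seq gave 12 libraries of nascent RNA, 2 per genotype and condition, grouped by their titles. The study calls its Bru-seq replicates independent experiments. The authors deposited RPKM values, in 1 table per condition. By their methods and the submitters' processing notes, reads were aligned to mm10 and dm3 with Bowtie2 2.3.4.3, kept where unique with SAMtools, counted over whole RefSeq genes with featureCounts 1.6.1 and turned into RPKM with edgeR. By the study's methods the second-strand synthesis was directional, and reads of the 2 strands were separated with SAMtools. Strand use in counting and the scaling between tables are not given in the sources used here.

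The members, gene lists and tests were chosen with earlier results of these data known. Members were placed by symbol in the RefSeq annotation of GRCm38, which also gave all sequences. Sequences on chromosome 18 are not shown. Library sizes were worked out from RPKM steps, and 95.1% to 97.3% of the microRNA rows with up to 30 reads then gave whole reads within 0.02. Between replicates, chi-square per degree of freedom over the members ran from 1.29 to 3.35, the latter in the steady-state EloA null libraries, so no library was counted as a copy of another.

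Rows with a mean above 0.5 RPKM in either genotype were tested with limma 3.58.1 (R 4.3.3, with a trend) on log2(RPKM + 0.1), and fold changes are on that scale, which understates low rows. Rows passed at an adjusted p of 0.05. The code was tested on simulated data. Python 3.11.15, pandas 2.3.3, SciPy 1.17.1 and matplotlib 3.10.9 did the rest. Named members were those of the listed clusters, the 10 highest over all libraries, the 5 largest rises and falls per recovery table without overlap and with at least 20 reads, the 5 highest and lowest WT recovery ratios after 10 min, and the 3 rows on either side of the limit of 5 RPKM. One result that this rule names is not reported here. Single members given as examples of distance, the seed groups and the whole-intron hairpins were chosen after their values were seen. An exact permutation test of recovery ratios between genotypes was planned and is not reported, because the WT steady state chose the members.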

Additional observations from a re-analysis of the deposited data

Results flagged for a closer look

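In 1 fit of all 12 libraries, an alternative added after seeing the data, the genotype difference at 10 min was set against that at 5 min. Of 10864 rows 10 passed the adjusted limit of limma and 581 had an unadjusted p under 0.05, and of the 117 members tested 2 passed and 18 had an unadjusted p under 0.05. Mir15a in Dleu2 had a difference of -4.21 (log2, limma adjusted p = 0.0404). It had 0 and 0 reads in WT and 1 and 2 reads in EloA null after 5 min, and 10 and 7 against 5 and 9 reads after 10 min. Mir5119 had a difference of -5.16 (log2, limma adjusted p = 0.0447), from 0 and 0 against 2 and 1 reads after 5 min and 3 and 2 against 1 and 2 reads after 10 min. Values of 0 entered as the pseudocount of 0.1 RPKM, so neither size is a measured fold.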

How the results depend on the processing

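The genotype test rested on 2 libraries a side, and rows of about 79.0 bases hold few reads, which limits every fold. Called rows and members were 0 and 0 at both times. After 5 min they were 128 and 7 with the replicate number as a block and 532 and 4 in 1 fit of all 12 libraries, and leaving out 1 library gave 0 to 90 rows and 0 to 5 members (4 members without the first WT library, 2 without the second and 5 without the first EloA null library). After 10 min they were 0 and 0 with the block, and the rows were 5 with a pseudocount of 1, 9 above 2 RPKM, 12 when centred and 264 in 1 fit, with 1 member there, and leaving out 1 library gave 0 to 81 rows and 0 to 2 members (2 without the second WT or the first EloA null library). The lone library left was assumed to vary like the other group. Of the 7 members under the block, Mir15a, Mir466i, Mir5119, Mir6385, Mir6900, Mir6910 and Mir7652, 5 were higher and 2 lower in EloA null. The replicate numbers are not known to pair libraries: with 2 pairs per table, the replicate differences of the genotypes correlated at 0.101 in steady state, 0.119 after 5 min and 0.103 after 10 min.

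Members over 1.5-fold in steady state were 5 higher and 9 lower. These were 3 higher when centred, 0 and 4 at 2-fold, 3 and 0 with at least 20 reads, and 9 to 15 and 11 to 22 without 1 library. After 5 min 18 higher and 27 lower became 0 and 0 with at least 20 reads and 20 to 29 and 29 to 35 without 1 library, with 14 lower at 2-fold. After 10 min 17 higher and 16 lower became 5 and 10 at 2-fold, 3 and 3 with at least 20 reads, and 14 to 32 and 10 to 24 without 1 library.

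Recovery ratios are given next as class medians averaged over libraries, with the difference as EloA null minus WT, for each alternative that moved a value by over 1 SD or turned its sign. The starts nearest the hairpins and the last class without members over 100 kb were chosen after seeing the data, as was leaving out steady-state libraries.

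After 5 min at 0 to 10 kb the values were 0.835 in WT and 0.707 in EloA null, a difference of -0.127, and without 1 library they ran from 0.761 to 0.86, from 0.656 to 0.758 and from -0.179 to -0.0535. Values were WT 0.743, EloA null 0.783 and difference 0.0399 with classes at 5 and 20 kb, EloA null 0.832 and difference -0.0131 for intronic members on the host strand, WT 0.71 and difference -0.0387 with at least 20 steady-state reads. Values were EloA null 0.783 and difference -0.0308 with 1 member per host, WT 1.33 and EloA null 1.27 divided by the median of all rows. After 5 min at 10 to 25 kb the values were 0.136 in WT and 0.0396 in EloA null, a difference of -0.0965, and without 1 library they ran from 0.126 to 0.143, from 0 to 0.0791 and from -0.136 to -0.0569. Values were WT 0.551, EloA null 0.374 and difference -0.177 with classes at 5 and 20 kb, WT 0.117 for intronic members on the host strand, WT 0.171 with at least 20 steady-state reads. Values were WT 0.217 divided by the median of all rows, WT 0.047 and difference -0.013 from the nearest start. After 5 min at over 25 kb the values were 0.48 in WT and 0.499 in EloA null, a difference of 0.0195, and without 1 library they ran from 0.44 to 0.519, from 0.437 to 0.561 and from -0.0426 to 0.0816. Values were WT 0.375, EloA null 0.361 and difference -0.0146 with classes at 5 and 20 kb, WT 0.37 for intronic members on the host strand, WT 0.691, EloA null 0.652 and difference -0.0395 with at least 20 steady-state reads. Values were WT 0.763, EloA null 0.902 and difference 0.139 divided by the median of all rows, difference -0.00575 from the nearest start, WT 0.336, EloA null 0.321 and difference -0.0149 without members over 100 kb.

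After 10 min at 0 to 10 kb the values were 1.31 in WT and 1.62 in EloA null, a difference of 0.314, and without 1 library they ran from 1.3 to 1.37, from 1.36 to 1.92 and from 0.0537 to 0.608. Values were WT 0.87, EloA null 1.05 and difference 0.182 with classes at 5 and 20 kb, EloA null 1.72 and difference 0.412 for intronic members on the host strand, WT 1.28, EloA null 1.37 and difference 0.0822 with at least 20 steady-state reads. Values were WT 1.29 and difference 0.329 with 1 member per host, WT 1.27 and EloA null 1.59 divided by the median of all rows. After 10 min at 10 to 25 kb the values were 0.741 in WT and 0.629 in EloA null, a difference of -0.112, and without 1 library they ran from 0.578 to 0.904, from 0.569 to 0.69 and from -0.275 to 0.0511. Values were WT 1.26, EloA null 1.52 and difference 0.258 with classes at 5 and 20 kb, EloA null 0.736 for intronic members on the host strand, WT 1.13 and EloA null 0.965 with at least 20 steady-state reads. After 10 min at over 25 kb the values were 0.207 in WT and 0.299 in EloA null, a difference of 0.0924, and without 1 library they ran from 0.186 to 0.228, from 0.218 to 0.381 and from 0.011 to 0.174. Values were WT 0.155 for intronic members on the host strand, WT 0.48 and EloA null 0.594 with at least 20 steady-state reads, WT 0.153 and EloA null 0.177 without members over 100 kb.

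The differences after 5 min within 10 kb and beyond 25 kb, and after 10 min at 10 to 25 kb, changed sign under some of these settings. Without the steady-state library whose genotype label disagrees, the difference after 10 min within 10 kb was 0.0537 and that after 5 min beyond 25 kb -0.0121. The cause was not tested. For the 15 genotype differences after release chosen as the largest falls and rises, no alternative changed the sign or the call. These members were chosen without overlap between genotypes, so leaving out any library could not turn the sign. The block and the joint fit of all libraries left the size of each difference as it was. The unchanged sign under these settings thus follows from the choice and says nothing about how firm the differences are. After release the block changed the call of no member but the 7 given.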
